A study of Mus musculus with 2 samples.

Results

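The Klf genes encode Krüppel-like factors, zinc-finger transcription factors that bind GC-rich and CACCC sequences. The 10 family members Klf2, Klf3, Klf4, Klf5, Klf6, Klf7, Klf9, Klf11, Klf14 and Klf15, out of 21631 protein-coding genes on the chromosomes with peaks, were examined for binding of Suz12. A member counted as having a peak when a Suz12 peak overlapped the gene or lay within 10 kb of either end of it, by the RefSeq outline of the gene on GRCm38. The peak list comes from 1 chromatin immunoprecipitation library of wild-type E14 cells, a mouse embryonic stem cell line, differentiated for 72 h in medium with serum, to which 1 µM all-trans-retinoic acid was added and from which leukemia inhibitory factor was left out. The series also holds a library of Suz12-/- cells at 0 h in serum medium made with the same antibody to Suz12, which was not analysed here. It differs from the wild-type library in genotype, time and culture medium together. No replicate of either condition was used, so no replicate error and no p-value can be given.

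Suz12 is a core subunit of Polycomb Repressive Complex 2, the enzyme that methylates histone H3 at repressed genes, many of them with CpG-rich promoters. In mouse embryonic stem cells Klf2, Klf4 and Klf5 are partly redundant factors of self-renewal, and their expression is known to fall when the cells differentiate. The other members act mostly in differentiated tissues or, as with Klf6 and Klf7, in cell growth and in neurons. Expression was not measured in this library, so the state of the cells and of these genes at 72 h could not be checked here.

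Suz12 peaks lay at all 3 pluripotency members, Klf2, Klf4 and Klf5, and at 2 of the 7 other members, Klf9 and Klf14. Klf3, Klf6, Klf7, Klf11 and Klf15 had no peak within 10 kb. In all, 5 of the 10 members had a peak (50.0%, exact 95% binomial interval 18.7 to 81.3), against 15.9% of all protein-coding genes (15.4 to 16.4). The share was 100% for the pluripotency members (29.2 to 100) and 28.6% for the other members (3.67 to 71.0), and these intervals overlap over most of their range. The intervals cover counting error only and treat genes as independent. They also take no account of the choice of the members, which was made with earlier results of these data known. All 5 members with a peak were overlapped by one, as were 12.3% of protein-coding genes.

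**Figure D1:**
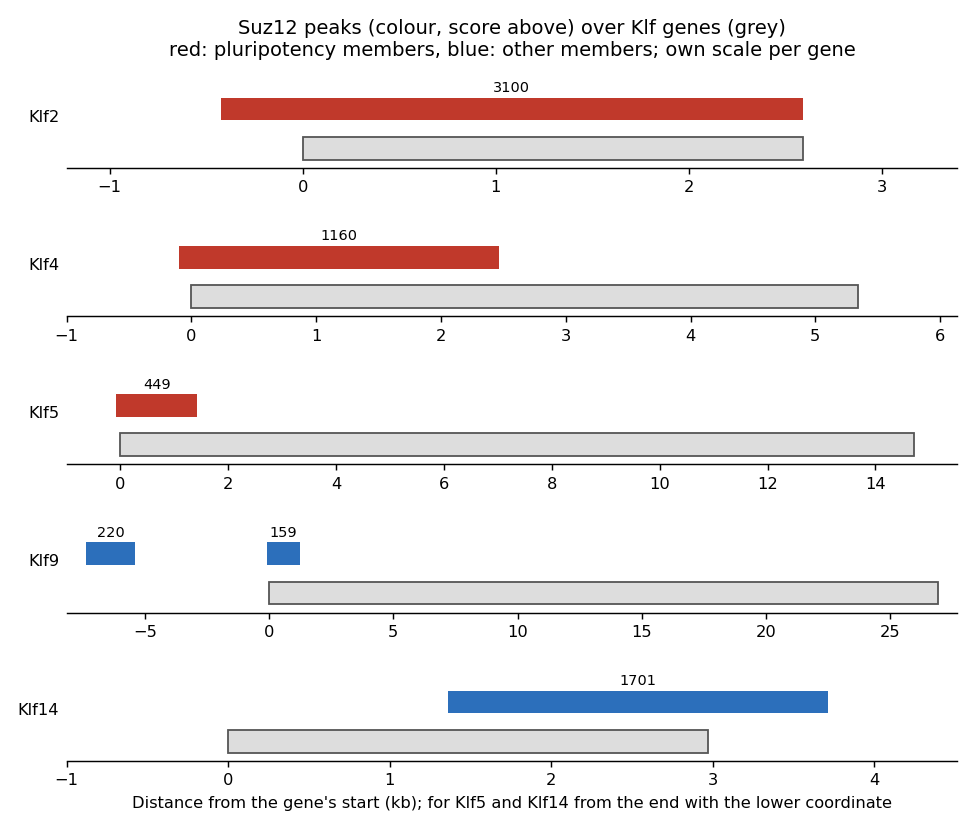
Suz12 peaks (coloured bars, with the authors' score above each) over the outlines of the 5 Klf genes that have one (grey bars), drawn by distance in kb with a separate scale for each gene; red marks the pluripotency members and blue the other members. Klf2 is covered almost whole, Klf4, Klf5 and Klf9 are covered from 1 end, and the peak of Klf14 runs past an end of the gene.

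The peaks are described below by their width and by the score that the authors' peak caller gave them, which ran from 150.3 to 3233 over the 3373 peaks with a median of 572. The file does not say on which scale this score runs, so it serves only to order peaks. It cannot order the 325 peaks that share the value 3100, and 30 peaks scored above that value.

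Klf2, which also holds endothelial cells and T cells in a quiescent state, carried the highest-scoring peak of the family members. This peak lay on chromosome 8 from 72318639 to 72321653, was 3015 bp wide and had the shared score of 3100. It began 423 bp before the annotated start of Klf2 and covered 2592 of the 2593 bases of the gene. It was wider than 79.5% of all peaks but narrow for its score, since the 325 peaks of score 3100 were 2473 to 20581 bp wide with a median of 5477 bp, and only 4.00% of them were narrower. No other annotated gene lay within 10 kb of it, and the nearest protein-coding gene, Eps15l1, was 19337 bp away.

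Klf4, one of the factors used to reprogram somatic cells to pluripotency, had a peak of 2563 bp with score 1159.6 on chromosome 4 from 55530013 to 55532575. This score was above that of 70.9% of all peaks. The peak reached 100 bp before the start of Klf4 and 2462 bp past it, and covered 46.1% of the gene from its 5′ side. The non-coding gene Gm12506 began 135 bp beyond the peak, and Gm34343, also non-coding, lay 6317 bp away.

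The 250 bases before the starts of Klf2 and Klf4 are shown because Suz12 covered both starts while reaching back to a different extent. They were taken from RefSeq promoter windows on GRCm38, chr8:72318812-72319061 on the plus strand and chr4:55532476-55532725 on the minus strand, and run 5′ to 3′ up to the last base before the start. Capitals mark matches to CACCC, the core of the box that Krüppel-like factors bind, and to GGGCGG, the GC box, on either strand.
Klf2: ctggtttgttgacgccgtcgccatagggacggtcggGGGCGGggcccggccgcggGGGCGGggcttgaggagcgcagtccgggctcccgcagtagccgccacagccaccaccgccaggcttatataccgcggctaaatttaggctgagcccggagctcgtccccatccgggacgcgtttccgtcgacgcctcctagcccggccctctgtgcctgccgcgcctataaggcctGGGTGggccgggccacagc
Klf4: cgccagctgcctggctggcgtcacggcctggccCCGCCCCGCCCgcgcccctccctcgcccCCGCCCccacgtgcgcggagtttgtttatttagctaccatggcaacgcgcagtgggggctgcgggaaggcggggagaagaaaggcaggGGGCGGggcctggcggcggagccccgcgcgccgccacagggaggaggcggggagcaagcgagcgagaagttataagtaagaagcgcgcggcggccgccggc

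All 250 bases shown for Klf2, with 29 CpG dinucleotides, lay inside its peak, and so did their 2 GC boxes and 1 CACCC match. For Klf4 only the last 100 bases, with 16 of the 32 CpG dinucleotides, lay inside the peak. None of its 4 GC boxes lay wholly inside the peak. The one nearest the start runs across the edge of the peak and lies mostly inside it, so its place depends on the exact edge. A match describes these letters only and does not show that a factor binds there.

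Klf5, a factor of embryonic stem cells and of gut epithelium, had the lowest score of the pluripotency members. Its peak on chromosome 14, from 99298612 to 99300118, was 1507 bp wide with score 449, below the median, and 41.4% of all peaks scored lower. It began 79 bp outside the end of the gene with the lower coordinate and reached 1428 bp into it, which is 9.70% of its 14722 bases. No other annotated gene lay within 10 kb of the peak. The scores of the pluripotency members thus ran from 449 at Klf5 through 1159.6 at Klf4 to 3100 at Klf2, and their widths followed the same order.

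Klf14, a regulator of fat tissue that is known to be expressed from the maternal allele, had the highest score among the other members. Its peak was 2355 bp wide with score 1701, on chromosome 6 from 30957383 to 30959737. This score lay between those of Klf2 and Klf4 and above that of 79.8% of all peaks. The peak covered 54.1% of the 2970 bases of Klf14 and ran 747 bp past the end of the gene with the higher coordinate. No other annotated gene lay within 10 kb, and the nearest protein-coding gene, Tsga13, was 35813 bp away.

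Klf9, a factor induced by glucocorticoid and thyroid hormone, had 2 peaks, both of low score. The peak over its start, on chromosome 19 from 23141127 to 23142479, was 1353 bp wide and scored 159, and only 2.13% of all peaks scored lower. It began 99 bp before the start and covered 4.66% of the gene. The other, from 23133874 to 23135834, was 1961 bp wide with score 219.7, and 16.0% of all peaks scored lower. It ended 5392 bp before the gene and overlapped an end of the non-coding gene 2410080I02Rik. The microRNA gene Mir1192 lay inside Klf9, 6952 bp from the peak at the start.

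The bases before the start of Klf9 are shown for comparison with Klf2 and Klf4. They come from chr19:23140976-23141225 on the plus strand, with the same marks.
Klf9: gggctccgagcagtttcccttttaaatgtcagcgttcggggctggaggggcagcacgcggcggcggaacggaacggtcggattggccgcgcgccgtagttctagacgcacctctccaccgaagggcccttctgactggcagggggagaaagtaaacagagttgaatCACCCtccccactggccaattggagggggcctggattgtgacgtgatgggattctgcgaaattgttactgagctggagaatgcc

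These 250 bases held 18 CpG dinucleotides, 2 of them in the last 99 bases, which the peak covered, and that stretch also held the 1 CACCC match. No GC box was found in this window.

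**Figure D2:**
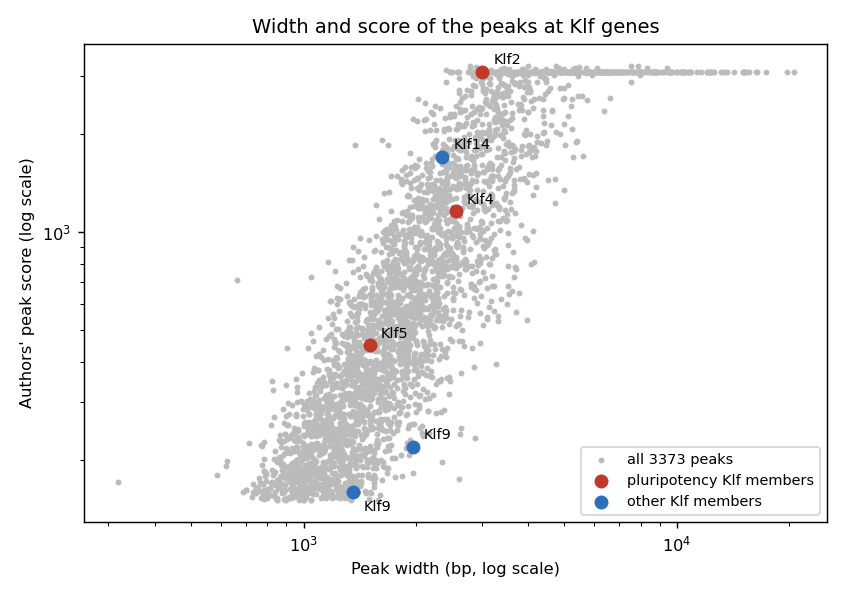
Width in bp and the authors' score (both axes logarithmic) of all 3373 Suz12 peaks (grey) and of the 6 peaks at Klf members (red for pluripotency members, blue for other members). The 6 peaks run from score 159 at Klf9 to 3100 at Klf2, where many peaks share 1 value.

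The peaks that covered an annotated start extended mostly into the gene. At Klf2 the peak ran 423 bp upstream and 2591 bp downstream of the start, at Klf4 100 and 2462 bp, and at Klf9 99 and 1253 bp. Over the 1687 starts of protein-coding genes inside a peak, out of 21045, the median was 641 bp upstream (quartiles 340 and 1153.5) and 1313 bp downstream (903 and 1984.5), and 81.0% of them had the longer side downstream. The upstream reach at Klf4 and Klf9 was short in this comparison, since only 4.92% and 4.80% of these starts had a shorter one, against 32.7% for Klf2. The downstream reach exceeded that of 85.7% of the starts at Klf2 and of 83.8% at Klf4, but of only 46.7% at Klf9. A gene with several annotated starts counts here once for each.

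The 5 members without a peak differed widely in their distance from the nearest Suz12 peak. Klf11, which is induced by TGF-beta, was the closest, at 17502 bp from a peak of score 571 that overlapped its neighbour Cys1. Klf15, a regulator of glucose and amino acid metabolism, was 227 kb from a peak of score 208, which lay 8039 bp from Vmn1r53, a vomeronasal receptor gene. Klf7, which acts in neurons, was 612 kb from a peak at the Wnt receptor gene Fzd5. Klf3, a repressor that works with CtBP, was 642 kb from a peak at Tbc1d1. Klf6, described as a tumour suppressor, was 776 kb from a peak at Pfkp. Over all protein-coding genes the median gap was 179 kb, and 77.6%, 78.6% and 82.2% of them had a peak nearer than Klf7, Klf3 and Klf6 did. No reads are given with the peaks, so the depth is unknown and signal below the authors' threshold at these genes would not be seen.

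The promoters of most members without a peak were also rich in CpG, with Klf7 near the middle of all protein-coding starts. RefSeq promoter windows of 300 bases, 250 before and 50 after the start, matched 8 of the 10 members. Those not matched were Klf5 and Klf14. The windows with the start inside a peak had 32 CpG dinucleotides at Klf2, 40 at Klf4 and 28 at Klf9. Those with the start outside peaks had 29 at Klf3, 23 at Klf6, 16 at Klf7, 42 at Klf11 and 47 at Klf15. The values with and without a peak over the start thus overlapped, and the highest belonged to members without a peak. Over all protein-coding starts the median was 22 inside peaks and 12 outside them.

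Ranked by this number, protein-coding starts were split into 4 bins of rising CpG content, in which 0.737%, 7.02%, 11.4% and 13.97% lay inside a peak, compared with 8.02% overall. The bin richest in CpG, with 26 to 67 dinucleotides, held 6 of the 8 members, of which 3 had the start in a peak (Klf2, Klf4 and Klf9) and 3 had not (Klf3, Klf11 and Klf15). Klf6 and Klf7 were in the next bin, and neither start lay in a peak. The GC content of the windows was 69.3% at Klf2, 74.3% at Klf4 and 63.3% at Klf9, against 58.3% at Klf7 to 77.7% at Klf11 for the members without a peak.

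**Figure D3:**
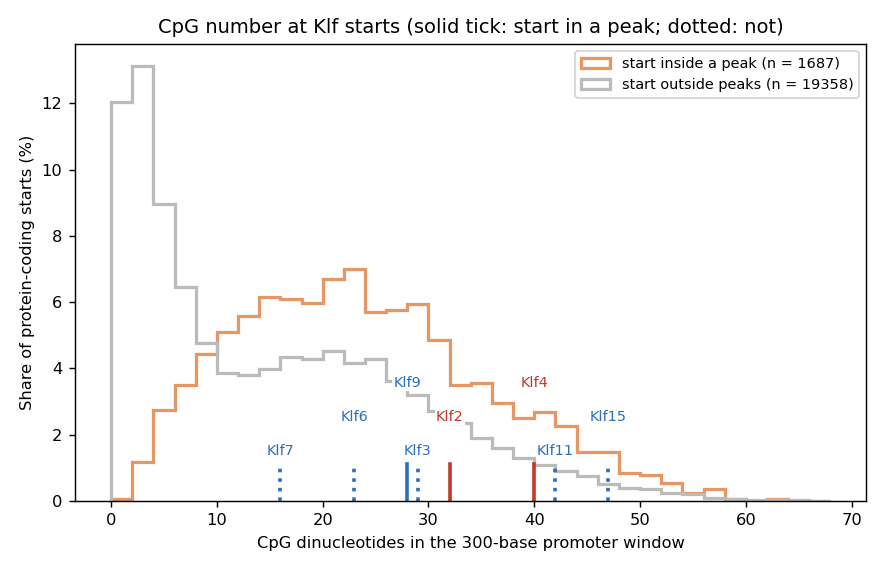
Share of protein-coding starts (%) by the number of CpG dinucleotides in the 300-base window, for 1687 starts inside a Suz12 peak (orange) and 19358 outside (grey); ticks mark Klf members, red for pluripotency and blue for other members, solid where the start lies in a peak and dotted where it does not. The members with a covered start, at 28 to 40, lie among those without, at 16 to 47.

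The windows before Klf11 and Klf6 are shown as examples of CpG-rich starts without a Suz12 peak. They come from chr12:24651121-24651370 and chr13:5861239-5861488, both on the plus strand. Klf11 was chosen as the member nearest to a peak without having one, and Klf6 as the one farthest away. Capitals have the same meaning as for Klf2.
Klf11: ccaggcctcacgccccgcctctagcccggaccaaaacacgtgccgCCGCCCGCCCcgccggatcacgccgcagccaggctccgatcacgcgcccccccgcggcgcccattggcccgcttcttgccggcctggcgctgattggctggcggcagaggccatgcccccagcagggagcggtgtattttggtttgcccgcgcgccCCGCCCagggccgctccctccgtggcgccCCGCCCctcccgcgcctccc
Klf6: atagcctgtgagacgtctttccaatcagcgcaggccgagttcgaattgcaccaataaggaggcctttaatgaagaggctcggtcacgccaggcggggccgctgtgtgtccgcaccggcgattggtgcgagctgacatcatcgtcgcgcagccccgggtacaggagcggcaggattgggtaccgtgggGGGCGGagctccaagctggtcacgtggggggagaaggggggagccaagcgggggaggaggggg

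The 250 bases of Klf11 held 32 CpG dinucleotides and 4 GC boxes, as many of both as those of Klf4, and those of Klf6 held 21 and 1. Over the 300-base windows, overlapping matches included, GGGCGG or its complement was found at 7 of the 8 members, against 46.7% of the windows of protein-coding genes and 35.9% of all promoter windows. It was present at 2 of the 3 members with a covered start, all but Klf9, and at 5 of the 5 without. Over all protein-coding starts it was more frequent inside peaks (69.6%) than outside them (44.7%). The member counts are too small to be set against these shares. CACCC or its complement was found at 5 of the 8 members, against 59.8% of protein-coding and 57.7% of all windows. TATAAA was found at 0 of the 8, against 12.7% and 13.7%.

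The remaining 7 Klf genes had 2 with a peak within 10 kb (28.6%, 3.67 to 71.0), against 15.9% of all protein-coding genes. The non-pluripotency members had the same share at this distance. By overlap with the gene the count was 1 of 7 (14.3%), against 2 of 7 non-pluripotency members and 12.3% of all protein-coding genes. Both peaks counted within 10 kb of the remaining Klf genes scored below the median of the list. The peak counted for Klf1, the erythroid factor of the globin genes, lay 6490 bp past the gene, overlapped Mast1 and came within 78 bp of Dnase2a. It had a score of 560.5. The peak at Klf12, a repressor that works with CtBP, overlapped 529 bases at the higher end of the gene, its 5′ end, together with the non-coding gene Gm41231. Its score of 150.75 was the fourth lowest of the list. Klf8, Klf10, Klf13, Klf16 and Klf17 had none, with gaps from 62.6 kb at Klf16 to 2223 kb at Klf8.

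By the cofactors that the proteins are known to bind, a grouping made after the values were seen, a peak lay within 10 kb of 4 of the 6 genes whose products work with acetyltransferases (Klf1, Klf2, Klf4, Klf5, Klf6 and Klf7). The exact 95% interval of this share is 22.3 to 95.7%, and by overlap with the gene the count was 3 of 6. The count within 10 kb was 2 of 6 (4.33 to 77.7%) for those that work with Sin3A (Klf9, Klf10, Klf11, Klf13, Klf14 and Klf16) and 1 of 3 (0.840 to 90.6%) for those that work with CtBP (Klf3, Klf8 and Klf12), against 15.9% of all protein-coding genes. The 3 intervals overlap over most of their range. All 3 pluripotency members belong to the acetyltransferase group, and the only further peak in it is the one counted for Klf1.

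**Figure D4:**
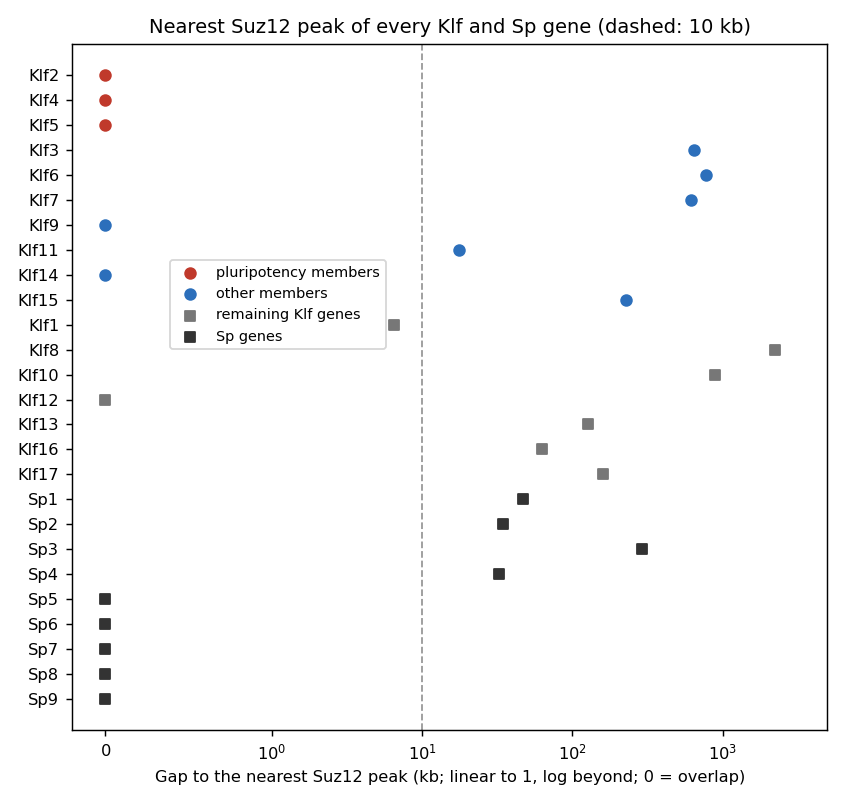
Gap in kb between each Klf or Sp gene and its nearest Suz12 peak (linear to 1 kb, logarithmic beyond; 0 is an overlap), with the 10 kb limit dashed; colours and shapes mark the pluripotency members, the other members, the remaining Klf genes and the Sp genes. Klf2, Klf4, Klf5, Klf9 and Klf14 are overlapped, and the other members lie between 17.5 and 776 kb away.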

How the data were processed

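Suz12 peaks of 1 wild-type library were used. Reads were processed with Bowtie and MACS on GRCm38 (mm10), per the submitters' processing notes. Their versions and settings, and which control was used, are not given in the sources read. The deposited file holds the start, end and score of each peak, without the scale of the score. Starts were converted to 1-based positions. Genes, their outer ends and promoter windows came from RefSeq tables of GRCm38, and protein-coding genes on the 20 chromosomes with peaks formed the background. Gaps between genes and peaks were computed with pandas 2.3.3 and numpy 2.4.6, and exact (Clopper-Pearson) intervals at 95% with scipy 1.17.1. The gap was tested on simulated data and recovered at 200 of 200 genes. The members and lists were chosen with earlier results of these data known. Named genes are the members, the other Klf and Sp genes, genes within 10 kb of a member's peak, and the protein-coding gene nearest to the peak closest to a member. The genes of this last kind were added after the values were seen. Planned protein features were not analysed here. Distances of 0 to 20 kb, stricter scores, annotated starts in place of gene outlines, and joining of peaks within 3 kb were tried.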

Additional observations from a re-analysis of the deposited data

How the results depend on the processing

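The 3 pluripotency members had a peak at every distance tried, from overlap to 20 kb, and when peaks had to score at least double the lowest value. With scores at or above the median, 2 of the 3 remained, since Klf5 lies below it. Among the other members, 1 of 7 had a peak under either score limit, as the peaks of Klf9 were lost and Klf14 was kept. At 20 kb Klf11 joined them, through the peak at Cys1. Over all 21631 protein-coding genes the count rose from 2656 by overlap to 4183 at 20 kb. It was 2646 under the lower score limit, against 3437 in the main setting. In all, 3 of the 10 members had a peak at or above the median, through 3 peaks in place of 6. The counts were 4 of the 16 other Klf and Sp genes and 1883 of all 21631 protein-coding genes. A score limit can only lower such counts. Within 2.5 kb of an annotated start the counts were 3 of 8 members, with 1 of 6 other members, 3 of 12 other family genes and 1729 of 17274 protein-coding genes. This setting leaves out genes without an annotated start in the table, among them Klf5, Klf14, Sp6 and Sp7. It also asks for a peak near a start in the table, which Klf1 and Klf12 lack. The peak at Klf12 lies over the 5′ end of its RefSeq outline, but not near the 1 start listed for it. Joining peaks within 3 kb left 6 domains at the members. Of 45 alternative counts, 35 stayed within 1.5 times the main count and 10 moved. The tally compares raw counts, also where a setting has fewer genes, and takes a fall from 3 to 2 as unchanged. It includes the counts over all protein-coding genes, so it does not measure how stable the Klf counts are. No paired analysis was possible because each group has 1 library and a peak list was used for 1 of them. With 1 library, leaving out a replicate was not possible either.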

Other observations

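The Sp genes encode the closest relatives of the Krüppel-like factors, with the same kind of zinc fingers. A Suz12 peak overlapped 5 of the 9, and these were Sp5, Sp6, Sp7, Sp8 and Sp9 (5 of 5, 47.8 to 100%), while none lay within 10 kb of Sp1, Sp2, Sp3 or Sp4 (0 of 4, up to 60.2%). Over all protein-coding genes, 12.3% were overlapped by a peak and 15.9% had one within 10 kb. The interval for Sp1 to Sp4 includes this 15.9%. The split between Sp1 to Sp4 and Sp5 to Sp9 was noticed in these data, and no test was run on it. The intervals for the 2 groups take no account of this choice, so they lend the split no weight. Sp1 to Sp4 are widely expressed, whereas Sp5 to Sp9 are known for roles in particular tissues. The peaks with the shared score of 3100 were at Sp5, a target of Wnt signalling (6366 bp), and at Sp9, a factor of limb and forebrain (12295 bp, over the whole gene). Sp8, which acts in limb and forebrain, had a peak 4681 bp wide (score 3031) and another of score 796 located 2140 bp away from the gene. Sp6 had a peak of score 2066 inside the gene, and Sp7, the osteoblast factor, had 2 low-scoring peaks of 174 and 189. The peak of score 174 reached only 3 bp into Sp7 and also overlapped a non-coding gene, while that of score 189 lay inside Sp7. The widths at Sp5, Sp8 and Sp9 exceed the 3015 bp at Klf2, the widest peak at a Klf gene. Sp1 lay 47.0 kb from its nearest peak, which is 1 of those at Sp7, Sp2 lay 34.5 kb from the one at Sp6, and Sp3 lay 289 kb from the one at Sp9. Sp4 had the shortest gap of these, 32.5 kb, to a peak that overlapped a gene outside the family.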
